A study of Mus musculus with 8 samples.

Results

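Smarcd3 and 9 further genes for core subunits of the SWI/SNF chromatin remodelling complex were examined in sorted mouse Paneth cells. The 10 genes (Smarcd1, Smarcd2, Smarcd3, Smarca2, Smarca4, Smarcb1, Smarcc1, Smarcc2, Smarce1 and Arid1a) were found by their gene IDs among the 55414 IDs of the count table, and all 10 were among the 11988 genes tested. Smarcd3 was picked because of its lower counts after zinc, so its difference between zinc and water is a description with no test, and the other 9 genes were added as its paralogues and partners. With zinc, Smarcd3 averaged 0.431 ± 0.354 CPM (library-scaled counts, SD, n = 4), against 3.54 ± 0.773 CPM (SD, n = 4) with water. The levels of the other 9 genes overlapped between the groups, and none of the 9 passed the test. Over all genes tested, 2.84% did not overlap and 0.0834% passed.

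The labels give C57BL/6J as the genotype of all mice, and the sources used here give no age. Of the 8 animals, 4 drank Milli-Q water (water group) and 4 drank water supplemented with 25 mM ZnSO4 (zinc group), in both groups over 7 days. Paneth cells, the secretory cells at the base of the small intestinal crypts, were then purified by FACS, and RNA-seq gave 1 library of mRNA per animal. Library totals ran from 20760764 to 24117111 counts. For a gene without reads in a library, an expected count of up to 3 remains possible. This limit equals 0.115 to 0.188 CPM depending on the library and covers counting error only. In a bulk sample, fewer cells that express a gene and less RNA of it per cell cannot be told apart.

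SWI/SNF complexes, called BAF complexes in mammals, use the energy of ATP to slide or evict nucleosomes and so open chromatin at enhancers and promoters. Each complex holds a single ATPase, Smarca4 or Smarca2, a scaffold built from Smarcc1 and Smarcc2, and a single member of the Smarcd family, through which transcription factors can bring the complex to their target genes. Among the Smarcd paralogues, Smarcd3 is best known from heart and skeletal muscle development, Smarcd1 from metabolic gene control by nuclear receptors, and Smarcd2 from granule formation in maturing neutrophils.

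The 3 Smarcd genes are shown first by the 250 bases before their transcription start sites, because these paralogues supply the same position of the complex, and the levels of Smarcd3 did not overlap between the groups while those of Smarcd1 and Smarcd2 did. The start is that of the GENCODE M39 canonical transcript and the build is GRCm39. The sequences run 5′ to 3′ on the strand of the gene, and capitals mark a match to the core of the metal response element, the motif bound by the zinc sensor Mtf1, searched as TGCACNC and TGCGCNC on both strands.
Smarcd1 (chr15:99599742-99599991, plus strand): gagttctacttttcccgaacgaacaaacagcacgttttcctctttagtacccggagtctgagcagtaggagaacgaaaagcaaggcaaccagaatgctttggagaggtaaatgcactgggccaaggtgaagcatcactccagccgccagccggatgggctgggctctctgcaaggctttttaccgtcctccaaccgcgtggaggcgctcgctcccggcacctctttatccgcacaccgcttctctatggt
Smarcd2 (chr11:106163849-106164098, minus strand): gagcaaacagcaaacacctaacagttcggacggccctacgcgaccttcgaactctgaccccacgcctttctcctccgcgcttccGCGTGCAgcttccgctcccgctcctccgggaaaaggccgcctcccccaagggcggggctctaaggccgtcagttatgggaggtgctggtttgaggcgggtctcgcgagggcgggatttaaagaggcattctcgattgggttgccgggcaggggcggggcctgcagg
Smarcd3 (chr5:24807281-24807530, minus strand): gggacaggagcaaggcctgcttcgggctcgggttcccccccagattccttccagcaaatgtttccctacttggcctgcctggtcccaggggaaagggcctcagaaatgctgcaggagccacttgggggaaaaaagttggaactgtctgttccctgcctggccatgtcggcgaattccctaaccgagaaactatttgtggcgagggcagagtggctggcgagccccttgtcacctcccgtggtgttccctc
Smarcd2 had 1 match, 166 bases before its start, and neither Smarcd1 nor Smarcd3 had any in these 250 bases. When the 50 bases after the start were added, Smarcd3 gained 1 match, 33 bases after the start. In such windows of 300 bases, 5 of the 10 subunit genes had a match, with 5 matches in Smarca4, 2 in Smarcb1 and 1 each in Arid1a, Smarcd2 and Smarcd3. Some of the Smarca4 matches overlap each other on opposite strands, so its separate sites are fewer than 5. Of all 21770 windows of protein-coding genes, 27.4% had at least 1 match and 7.14% had at least 2. For comparison, the zinc responsive genes Mt1, Mt2 and Slc30a1 had 3, 2 and 2 matches in their windows. A match is a run of letters, not evidence of binding. In the same windows the GC content was 63.7% in Smarcd3, 64.3% in Smarcd2 and 57.7% in Smarcd1, against a median of 54.3% over all windows. Part of each printed sequence is exon in other annotated transcripts of the same gene, namely 154 of the 250 bases in Smarcd3, 58 in Smarcd2 and 1 in Smarcd1, and 49 bases of the Smarcd2 sequence are exon of another gene, Gm74408.

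Smarcd3 (ENSMUSG00000028949) lies on the minus strand of chromosome 5, from 24795816 to 24829409 on GRCm39, with 15 merged exons of 5677 bases in all. GENCODE M39 lists 23 transcripts of Smarcd3, of which 11 are protein-coding and 15 start within 200 bases of the canonical start at 24807280. The farthest upstream start lies 22129 bases away at 24829409, and its window held no match to the motif. Gene-level counts cannot tell transcripts from these starts apart.

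In replicates 1 to 4, Smarcd3 had 41, 86, 105 and 91 counts with water and 14, 4, 2 and 16 counts with zinc. In all, 323 Smarcd3 reads were counted with water and 36 with zinc. Every zinc library was therefore below every water library. Scaled to CPM with TMM factors, which adjust the library totals for differences in composition, the Smarcd3 levels were 2.56, 3.69, 4.44 and 3.48 CPM with water and 0.831, 0.193, 0.0790 and 0.621 CPM with zinc. Among the zinc libraries, replicates 1 and 4 were higher than replicates 2 and 3, and all 4 stayed under 1 CPM. The exact Poisson 95% intervals of zinc replicates 2 (0.0526 to 0.494 CPM) and 4 (0.355 to 1.01 CPM) overlap. No grouping is therefore read from this order. The value in zinc replicate 3 rests on 2 reads, for which the exact Poisson 95% interval runs from 0.242 to 7.22 reads. It lies under the expected count of 3 that remains possible for a gene without reads.

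Between the nearest libraries of the groups, water replicate 1 and zinc replicate 1, Smarcd3 was 3.08-fold higher with water (95% interval of the counts 1.65 to 6.13). Between the farthest libraries, water replicate 3 and zinc replicate 3, the ratio was 56.2, with a wide interval of 15.2 to 470.24 because of the 2 reads. These intervals cover counting error only. The ratio of the group means was 8.22, and the edgeR log2 fold change was -3.07 (SE 0.49), the 2nd lowest among the 11988 genes tested. The choice of Smarcd3 by this contrast favours such a size and rank. Smarcd3 reached 10 counts in all water libraries, and with zinc in replicates 1 and 4 only.

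At an adjusted p under 0.05, 1 of the 10 subunit genes was called, Smarcd3, against 0.0834% of all genes tested (10 of 11988). Because Smarcd3 was chosen by this contrast, nothing is read from that count. The call was lost when water replicate 2, water replicate 3 or zinc replicate 2 was left out, so it depended on single libraries. The Smarcd3 log2 fold changes were then -3.06, -2.95 and -2.84, near that of the full data. These sizes come from the values by which Smarcd3 was chosen, so nothing is read from their nearness. The call was also absent when genes with a mean under 50 counts were dropped, since Smarcd3 is itself below that mean.

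**Figure D1:**
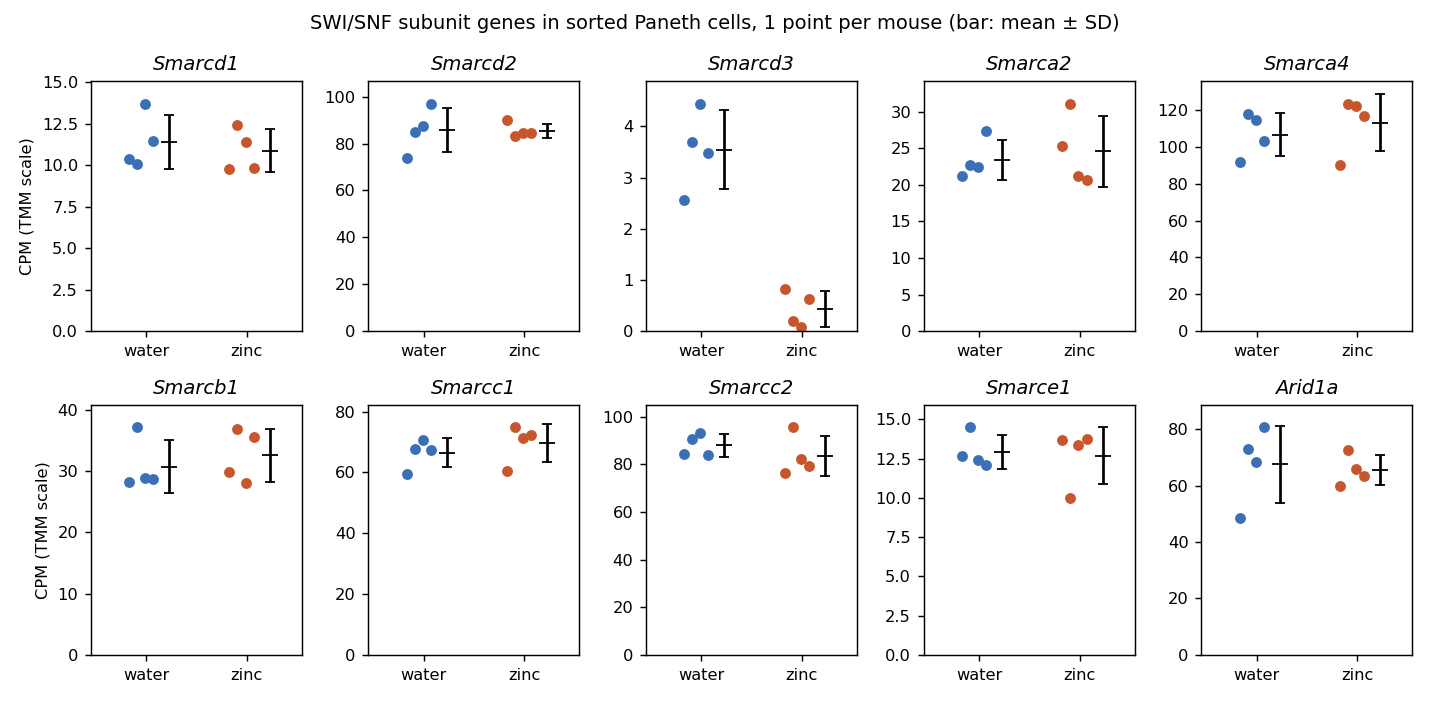
Levels of the 10 subunit genes in CPM (TMM scale, axes start at 0), with water on the left and zinc on the right of each panel, 1 point per library and a bar for the mean ± SD (n = 4). The Smarcd3 points lie between 2.56 and 4.44 CPM with water and between 0.0790 and 0.831 CPM with zinc, while the points of the other 9 genes overlap between the groups.

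The other Smarcd paralogues did not show a difference beyond the spread between animals. Smarcd1 had 10.4, 10.1, 13.7 and 11.5 CPM with water and 9.80, 12.5, 11.4 and 9.85 CPM with zinc. Smarcd2 had 73.9, 84.8, 87.6 and 97.0 CPM with water and 89.9, 83.1, 84.6 and 84.4 CPM with zinc. For both genes the zinc values lay inside or close to the water range, and for Smarcd2 water replicates 1 and 4 were the extremes. The log2 fold change was -0.07 (SE 0.16) for Smarcd1 and -0.01 (SE 0.11) for Smarcd2, each with an edgeR adjusted p of 0.998.

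The division of the Smarcd family among its paralogues was then described. Levels of different genes are compared here as CPM per kilobase of merged exons. On that scale Smarcd2 made up 86.3 ± 1.57% (SD, n = 4) of the summed Smarcd level with water and 88.9 ± 1.16% with zinc, Smarcd1 made up 10.9 ± 1.31% and 10.8 ± 1.41%, and Smarcd3 made up 2.78 ± 0.464% and 0.348 ± 0.281%. Smarcd2 was thus the main Smarcd paralogue of these Paneth cells in either group. The Smarcd3 share was 2.34, 2.97, 3.34 and 2.46% with water and 0.652, 0.159, 0.0648 and 0.515% with zinc. The shares of Smarcd3 did not overlap between groups, as its levels fix, and even with water Smarcd3 was the least abundant of the paralogues in each library.

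The ATPases supply the motor of the complex, and Smarca4 was the more abundant of the pair. Smarca4 had 91.6, 117.71, 114.42 and 103.0 CPM with water and 90.3, 123.36, 121.96 and 116.74 CPM with zinc. Smarca2 had 21.2, 22.7, 22.5 and 27.4 CPM with water and 25.4, 31.1, 21.2 and 20.7 CPM with zinc. In both groups replicate 1 had the lowest Smarca4 value, and the groups overlapped for both ATPases. The log2 fold change was 0.08 (SE 0.12) for Smarca4 and 0.06 (SE 0.14) for Smarca2. Per kilobase, Smarca4 held 92.4 ± 1.08% of the ATPase pair with water and 92.5 ± 1.69% with zinc (SD, n = 4), a division that did not differ beyond the spread. This share depended on the gene length used, since the merged exons of Smarca2 run to 17813 bases against 7567 in its longest transcript, and Smarca4 held 84.0% when the longest transcript was taken as the length.

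Of the scaffold genes, Smarcc2 was above Smarcc1 per kilobase in 8 of 8 libraries (mean log2 ratio 0.503, SD 0.115). Smarcc1 had 59.6, 67.8, 70.8 and 67.4 CPM with water and 60.6, 74.8, 71.4 and 72.2 CPM with zinc. Smarcc2 had 84.1, 90.4, 93.2 and 83.8 CPM with water and 76.1, 95.4, 82.4 and 79.3 CPM with zinc. Neither gene separated the groups, with log2 fold changes of 0.07 (SE 0.11) for Smarcc1 and -0.08 (SE 0.11) for Smarcc2. The Smarcc1 share of the pair, per kilobase, was 38.6, 40.0, 40.3 and 41.6% with water and 41.4, 41.0, 43.5 and 44.7% with zinc. Water replicates 1, 2 and 3 were below all zinc libraries in this share, while water replicate 4 lay within the zinc range, so the groups overlapped.

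**Figure D2:**
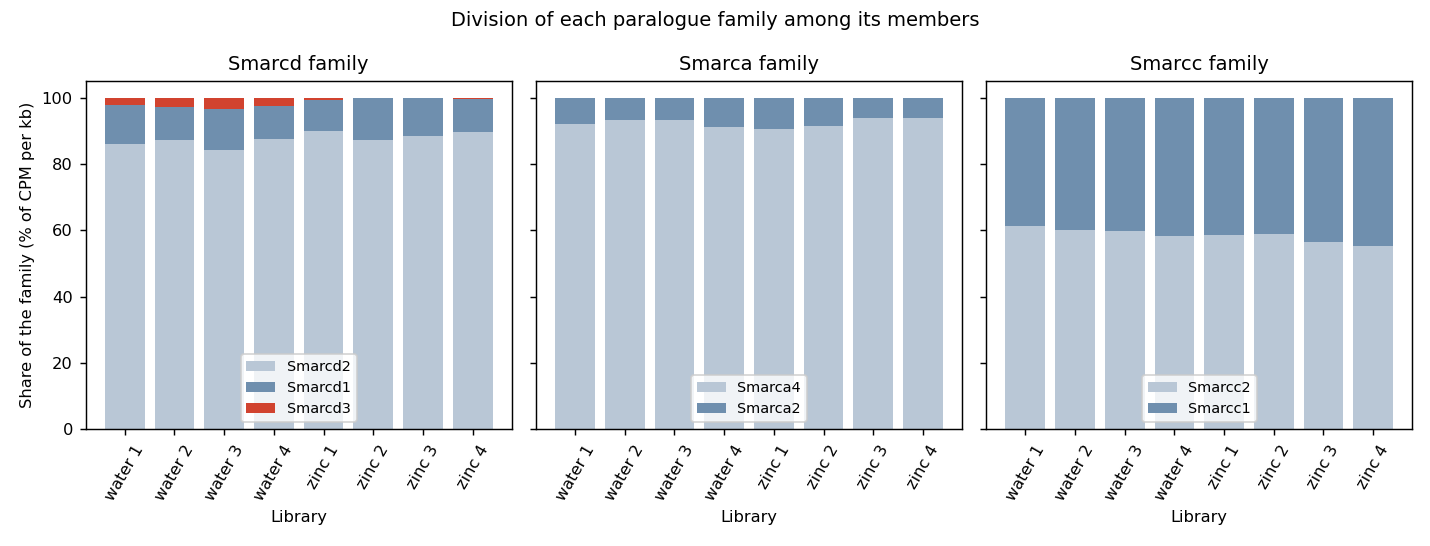
Share of each paralogue in the summed level of its family (% of CPM per kilobase of merged exons), 1 bar per library, for the Smarcd, Smarca and Smarcc families. The Smarcd3 segment holds 2.34 to 3.34% in the water libraries and 0.0648 to 0.652% in the zinc libraries, while Smarca4 holds 90.6 to 94.0% of its pair in all 8 libraries.

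Smarcb1, Smarce1 and Arid1a complete the set. Smarcb1, a subunit that grips the nucleosome and is lost in rhabdoid tumours, had 28.2, 37.1, 28.9 and 28.8 CPM with water and 29.8, 36.8, 28.0 and 35.6 CPM with zinc. Smarce1, a subunit with an HMG box that binds DNA, had 12.6, 14.5, 12.4 and 12.1 CPM with water and 13.7, 9.99, 13.4 and 13.8 CPM with zinc. Arid1a, the large subunit that defines the canonical BAF form, had 48.7, 72.9, 68.4 and 80.6 CPM with water and 59.98, 72.7, 65.8 and 63.5 CPM with zinc. Smarcb1 was high in water replicate 2 and in zinc replicates 2 and 4, Smarce1 was lowest in zinc replicate 2, and Arid1a had both its lowest and its highest value with water, in replicates 1 and 4. The groups overlapped in each of the 3 genes. The log2 fold changes were 0.08 (SE 0.13), -0.02 (SE 0.15) and -0.05 (SE 0.14) for Smarcb1, Smarce1 and Arid1a.

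Of the 9 genes beside Smarcd3, 4 had a log2 fold change above 0 and 5 below, with a median of -0.01 against 0.01 over all genes tested. All 9 had an adjusted p of 0.998 in edgeR, and 0 of 9 had an unadjusted p under 0.05, a mark reached by 4.65% of all genes tested (558 of 11988). In none of the 9 did the 4 zinc libraries lie on a single side of the 4 water libraries, a pattern found in 2.84% of all genes tested (340 of 11988). The 95% intervals of the 9 log2 fold changes lay between -0.40 and 0.37, that is between 0.758 and 1.29 as a ratio of zinc to water. These bounds are the outermost ends of 9 separate intervals, not a limit of detection. With 4 animals in each group, a difference inside the interval of a gene remains possible for that gene.

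Across all 8 libraries the order of levels, in CPM per kilobase of merged exons (mean ± SD, n = 8), began with Smarcd2 at 19.3 ± 1.46 and Smarca4 at 16.7 ± 2.01. Smarcc2 followed at 11.3 ± 0.895, Smarcc1 at 7.98 ± 0.641, Arid1a at 5.26 ± 0.762 and Smarcb1 at 3.65 ± 0.470. The lower end held Smarcd1 at 2.39 ± 0.299, Smarce1 at 1.48 ± 0.160, Smarca2 at 1.35 ± 0.206 and Smarcd3 at 0.3501 ± 0.309. Smarcd2 was above Smarca4 in 7 of 8 libraries and Smarce1 was above Smarca2 in 6 of 8. On this scale these neighbours are therefore not separated beyond their spread. Every other pair of neighbours kept its order in 8 of 8 libraries. Smarcd3 was last in both groups, at 0.624 CPM per kilobase with water and 0.0759 with zinc. With the longest annotated transcript as the length, Smarcd2 was above Smarca4 in 8 of 8 libraries. On that length Smarcd1 moved behind Smarce1 and Smarca2, and Smarcd3 stayed last.

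**Figure D3:**
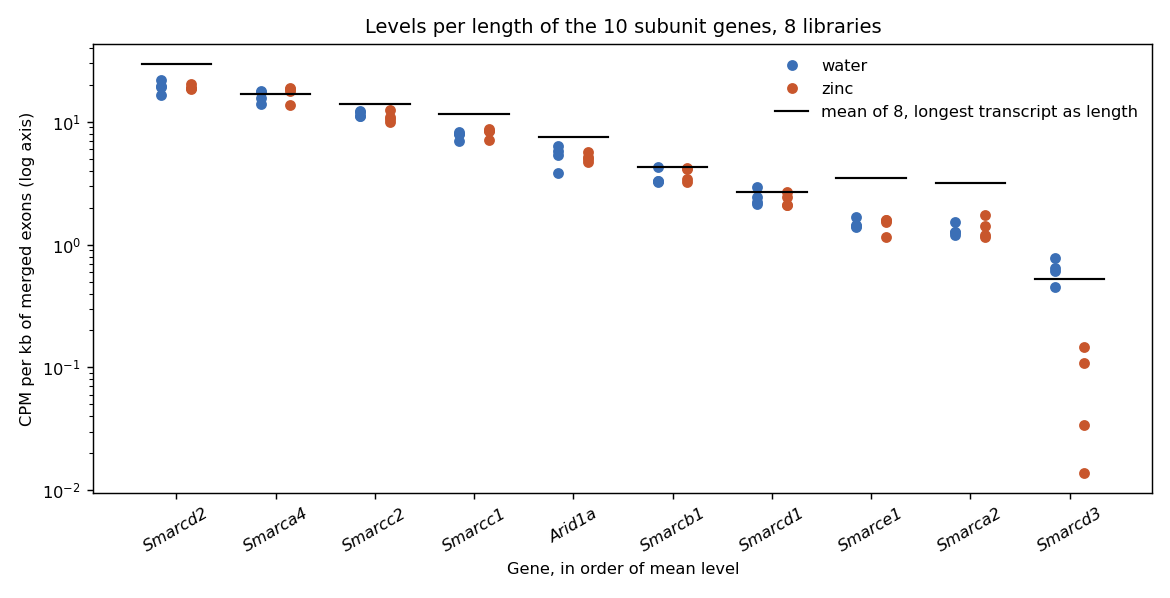
Level of each of the 10 subunit genes per library in CPM per kilobase of merged exons (log axis), with water and zinc side by side and a line for the mean of the 8 libraries when the longest transcript is the length. Means fall from 19.3 for Smarcd2 to 1.35 for Smarca2, and the zinc points of Smarcd3 lie below all others.

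Exons of several subunit genes overlap genes on the opposite strand. The library kit keeps the strand, but the sources used here do not say whether the counting used it. Chpf2, a chondroitin synthesis gene on the plus strand (chromosome 5, 24791561 to 24799554), shares 2466 of the 5677 merged exon bases of Smarcd3 (43.4%). Chpf2 had 8.94, 11.8, 16.8 and 13.9 CPM with water and 11.2, 12.7, 12.2 and 11.8 CPM with zinc. All 4 zinc values of Chpf2 lay within the water range, and its log2 fold change was -0.11 (SE 0.17, adjusted p 0.998 in edgeR). How the overlap bears on the Smarcd3 counts was not tested. Psmc5, a proteasome ATPase gene, shares 1269 of the 4446 merged exon bases of Smarcd2 (28.5%), and its log2 fold change was -0.01 (SE 0.11, adjusted p 0.998). Dhx30 shares 123 exon bases with Smarcc1 and Myl6 shares 15 with Smarcc2, with log2 fold changes of -0.06 (SE 0.14) and -0.05 (SE 0.11).

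The genes beside Smarcd3 on chromosome 5 were not called. Abcf2, a gene of the ABC family without a membrane domain, lies 3469 bases away and had 34.7 ± 4.38 CPM with water against 37.8 ± 1.84 CPM with zinc (SD, n = 4). Its log2 fold change was 0.13 (SE 0.12, adjusted p 0.998 in edgeR). Nub1, on the other side at a gap of 61120 bases, had 33.3 ± 3.54 CPM with water against 34.9 ± 1.12 CPM with zinc (SD, n = 4), a log2 fold change of 0.07 (SE 0.11, adjusted p 0.998 in edgeR). Both genes overlapped between the groups.

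**Figure D4:**
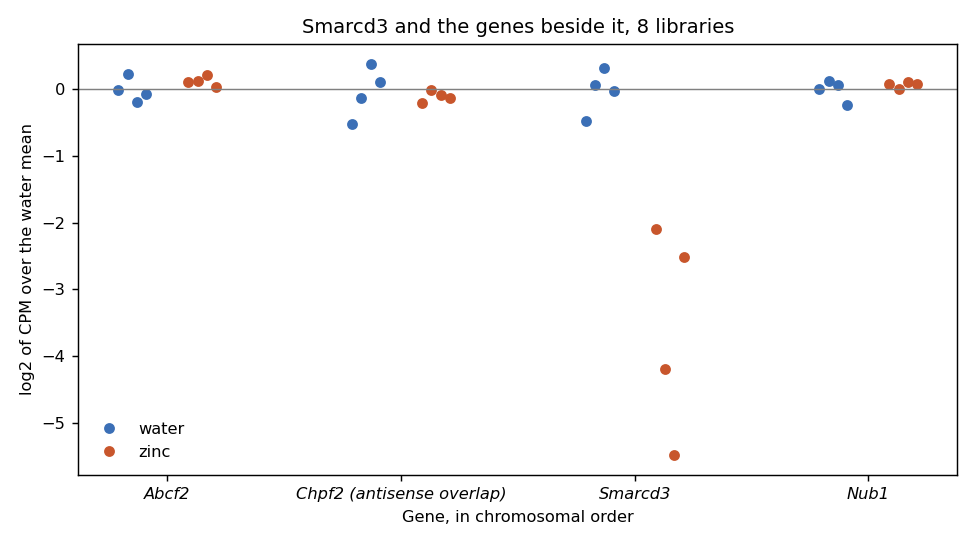
Levels of Smarcd3, its antisense neighbour Chpf2 and the flanking genes Abcf2 and Nub1 in the 8 libraries, as log2 of CPM over the mean of the water libraries, with genes in chromosomal order. The Smarcd3 zinc points lie well below 0 and apart from its water points, while the zinc points of Chpf2 lie within the water range and those of Abcf2 and Nub1 overlap it.

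A list of 19 further SWI/SNF subunits covered the subunits that define PBAF, the form with Pbrm1, and the non-canonical form with Brd9, together with actin-related, PHD finger and Bcl7 subunits. Of these, 17 passed the low-count filter, and 0 were called in either direction in edgeR, against 0.0834% of all genes tested. An unadjusted p under 0.05 was found for 1 of the 17, near the 4.65% of all genes tested. There were 6 log2 fold changes above 0 and 11 below, with a median of -0.07 against 0.01 over all genes tested. The smallest p belonged to Dpf3, a PHD finger subunit that reads modified histones. Dpf3 had 0, 0.473, 0.508 and 0.458 CPM with water and 1.54, 0.772, 0.672 and 1.51 CPM with zinc. Its zinc libraries were all above its water libraries, the opposite direction to Smarcd3, at counts of 39 or fewer. Among the 17, only Dpf3 separated the groups, a pattern found in 2.84% of all genes tested (340 of 11988). The log2 fold change of Dpf3 was 1.56 (SE 0.62), with an edgeR adjusted p of 0.998. Brd9, a bromodomain subunit, had 8.90 ± 1.65 CPM with water against 7.03 ± 1.56 CPM with zinc (SD, n = 4), with a log2 fold change of -0.34 (SE 0.20, adjusted p 0.998 in edgeR). The other 15 ranged from -0.74 to 0.14.

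The ATPases of other remodellers, of the ISWI, CHD, INO80 and related families, gave a similar picture. Of 22 listed, 20 were tested and 0 were called in edgeR, against 0.0834% of all genes tested, and 1 of the 20 had an unadjusted p under 0.05, against 4.65%. There were 6 log2 fold changes above 0 and 14 below, and a median of -0.07. Smarcal1, an ATPase that restarts stalled replication forks, had 7.70 ± 0.621 CPM with water against 9.99 ± 0.910 CPM with zinc (SD, n = 4) without overlap. Among the 20, only Smarcal1 separated the groups, against 2.84% of all genes tested. The log2 fold change of Smarcal1 was 0.38 (SE 0.16), with an edgeR adjusted p of 0.998. Chd2 had 19.8 ± 6.70 CPM with water against 13.9 ± 3.51 CPM with zinc (SD, n = 4), overlapping between the groups, with a log2 fold change of -0.51 (SE 0.25, adjusted p 0.998 in edgeR). The other 18 ranged from -0.31 to 0.13.

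**Figure D5:**
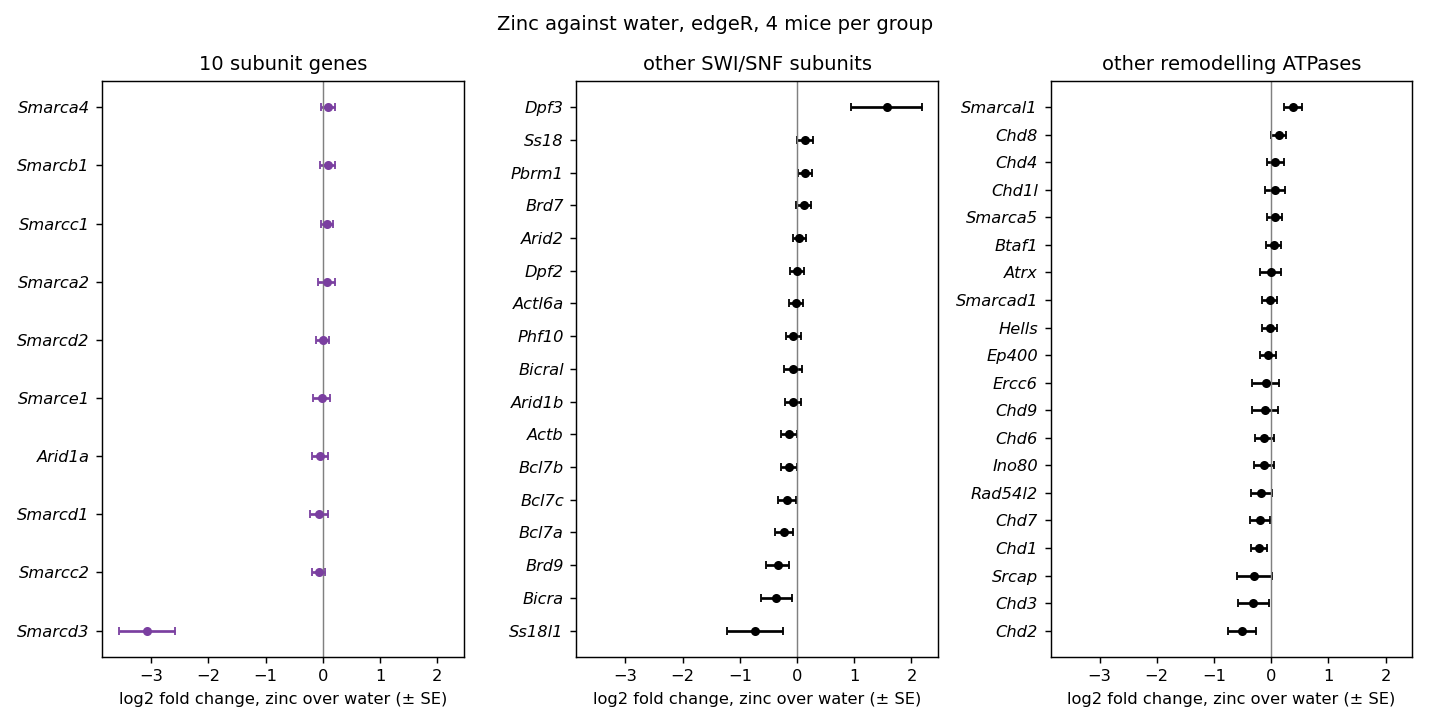
The edgeR log2 fold changes of zinc over water (points, bars ± SE, 4 libraries per group) for the 10 core subunit genes, 17 other SWI/SNF subunits and 20 ATPases of other remodellers. Smarcd3 lies at -3.07 and the other 9 core subunit genes between -0.08 and 0.08, while Dpf3 lies highest at 1.56 with a wide bar.

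The genes whose levels ran most like those of Smarcd3 were sought among 11092 tested genes with a mean of at least 1 CPM, by Pearson r of log2 CPM over the 8 libraries. They were Pxdn, a peroxidase that crosslinks basement membrane collagen (r = 0.994), Enox2, a cell surface oxidase (r = 0.981), Nos2, the inducible nitric oxide synthase (r = 0.974), Casp4, a caspase that responds to cytosolic lipopolysaccharide (r = 0.970), and Smad6, an inhibitor of BMP signalling (r = 0.955). The points share the libraries and the zinc and water groups, so a gene with lower zinc values in every library scores high, and r is a description. Mean levels with water and with zinc were 12.4 and 4.05 CPM for Pxdn, 14.8 and 11.7 CPM for Enox2, 4.45 and 0.580 CPM for Nos2, 10.04 and 4.17 CPM for Casp4, and 2.26 and 1.23 CPM for Smad6. In all 5 genes the groups did not overlap, a pattern found in 2.84% of all genes tested (340 of 11988). The edgeR adjusted p was 0.0198 for Pxdn, 0.0819 for Casp4, 0.872 for Nos2 and 0.998 for Enox2 and Smad6. Likeness to Smarcd3, itself chosen by this contrast, favours genes without overlap, so nothing is read from these values.

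Markers of the cells that could be in the gate were read from lists. The 9 Paneth cell markers summed to 364460 to 714900 CPM with water and 344460 to 709360 CPM with zinc, so the labelled cell type was present in every library. In both groups the sum was highest in replicate 1 and lowest in replicate 4. These sums are on the TMM scale and are not shares of the library totals. Because Smarcd3 is known from muscle, muscle markers were read beside it. The 6 striated muscle markers summed to at most 0.344 CPM with water and 0.193 CPM with zinc, with Myh6, Myod1 and Myog at 0 in all libraries, and the 5 smooth muscle markers to at most 0.172 and 0.831 CPM, with Acta2 and Myh11 at 0. The 5 fibroblast markers, with 4 of them at 0 in all libraries, and the 3 endothelial markers, with Cdh5 and Kdr at 0, reached at most 0.313 CPM with water and were at 0 with zinc. The part of these cells in the Smarcd3 difference was not tested. The 7 leukocyte markers summed to 0.125 to 1.30 CPM with water and 0 to 0.776 CPM with zinc, with Cd3e and Itgax at 0, and the 5 neuronal and glial markers to 0.338 to 1.37 and 0.435 to 0.594 CPM, with S100b and Sox10 at 0. The 4 stem cell markers summed to 4356 to 5728 CPM with water and 3047 to 4455 CPM with zinc, ranges that overlap at their edge, and their part in the Smarcd3 difference was not tested. The ranges with water and with zinc also overlapped for goblet (8129 to 13694 and 10207 to 13309 CPM), enterocyte (187 to 201 and 186 to 255 CPM), enteroendocrine (42.7 to 106.93 and 45.0 to 88.0 CPM) and tuft cell markers (14.0 to 119.98 and 17.1 to 81.7 CPM).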

How the data were processed

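The deposited table gives raw read counts (integers, not normalized by the authors) for each Ensembl gene in each of the 8 libraries. The submitters' processing notes name FastQC 0.12.0, STAR 2.7.0a, DESeq2 and the build mm39 (GRCm39). The sources used here do not give the counting program, its strand setting or its annotation. GENCODE M39 supplied symbols and GRCm39 coordinates for 54749 of 55414 IDs.

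Counts were analysed with edgeR 4.0.16 in R 4.3.3 (default filter on low counts with minimum count 10, TMM, robust quasi-likelihood F test with treatment as the only term, Benjamini-Hochberg adjustment over 11988 genes, threshold 0.05), which was tested on simulated data. SE was derived from the log2 fold change and its F statistic. The labels give only replicate numbers, and libraries were taken as 1 animal each from the study's methods. Otherwise p-values would measure only the spread between these samples, which may be technical. Libraries of a group differed beyond sampling noise (chi-square per degree of freedom 29.1 to 121.5) and each counted as 1 replicate. Alternatives were other scalings, DESeq2 1.42.0, limma-voom (limma 3.58.1), other filters, a replicate block and leaving out each library. Text names all 10 subunit genes, from each other list the 2 genes with the smallest p where none was called, overlapping and flanking genes, and the 5 genes most like Smarcd3. Members and lists were chosen with earlier results of these data known.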

Additional observations from a re-analysis of the deposited data

Results flagged for a closer look

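Of the values, 3 lay far from the other libraries of their group, out of 30 groups of 4 libraries examined (the 10 core subunit genes, the named genes of the other lists and the library totals, each with water and with zinc), where chance alone marks about 1 in 20. Smarcb1 had 37.1 CPM in water replicate 2, from 864 counts, while the remaining water libraries had 28.2 to 28.9 CPM. Smarce1 had 9.99 CPM in zinc replicate 2, from 207 counts, while the remaining zinc libraries had 13.4 to 13.8 CPM. Dpf3 had 0 CPM in water replicate 1, from 0 counts, while the remaining water libraries had 0.458 to 0.508 CPM. The gap to the nearest library was 0.923, 0.890 and 0.903 of the whole range of the group for Smarcb1, Smarce1 and Dpf3, above Dixon's critical value for 4 values. Smarcd3 was not among the marked values in either group.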

How the results depend on the processing

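Smarcd3 was lower with zinc under every alternative that tested it. Its log2 fold changes were -3.51 to -3.07 under other scalings, tools, filters and the block and -3.53 to -2.71 with 1 library left out. Smarcd3 was chosen by this contrast and its groups do not overlap, so its direction was fixed in advance. These ranges describe the size only, and nothing is read from the stable direction or from the width of the ranges. The count of core subunit genes called was 0 when a mean of 50 counts was required, as the mean of Smarcd3 is below it, and ranged from 0 to 1 with 1 library left out. Over all genes, the 3 higher and 7 lower calls became 8 and 28 with DESeq2 and 11 and 55 with no filter. With 1 library left out they ranged from 0 to 5 higher and 1 to 12 lower, with 1 lower call without water replicate 2 or zinc replicate 2, 2 without water replicate 3 and 12 without zinc replicate 4, and the cause was not tested. Same-numbered water and zinc libraries had correlations of their deviations over 0.1 in 3 of 4 pairs (5.51e-05 to 0.263, other pairs -0.21 to 0.04). Every library but the replicates 2 correlated best with its own number. TMM factors rose from replicate 1 to replicate 4 in both groups, from 0.764 to 1.213 with water and from 0.775 to 1.225 with zinc. The Paneth marker sums were highest in replicate 1 and lowest in replicate 4 in both groups. This shared order is a hint from the data and not the design, and its source was not tested. As 1 pair had a correlation under 0.1, the numbers were not taken as pairs. The main SE and p-values therefore leave this order out. With the replicate block 6 genes were higher and 26 lower, Smarcd3 among them at -3.18. Direction among the other core genes reversed only with 1 library left out, with ranges of -0.14 to 0.026 for Smarcd1 (above 0 without water replicate 3), -0.072 to 0.054 for Smarcd2 (above 0 without water replicate 4 or zinc replicate 2), -0.068 to 0.14 for Smarca2 (below 0 without zinc replicate 2), -0.070 to 0.077 for Smarce1 (above 0 without water replicate 2 or zinc replicate 2) and -0.18 to 0.043 for Arid1a (above 0 without water replicate 4). Levels per kilobase rose when the Defa genes were left out of the scaling, to 3.61 for Smarcd1, 29.1 for Smarcd2, 2.04 for Smarca2, 25.3 for Smarca4, 5.52 for Smarcb1, 12.1 for Smarcc1, 17.1 for Smarcc2, 2.23 for Smarce1 and 7.95 for Arid1a. With the longest transcript as length they were 2.71 for Smarcd1, 29.4 for Smarcd2, 3.17 for Smarca2, 4.25 for Smarcb1, 11.7 for Smarcc1, 14.0 for Smarcc2, 3.48 for Smarce1 and 7.49 for Arid1a, and the family shares were 8.32% for Smarcd1, 90.1% for Smarcd2, 16.0% for Smarca2, 84.0% for Smarca4, 45.5% for Smarcc1 and 54.5% for Smarcc2. Without any length the shares were 18.0% for Smarca2, 82.0% for Smarca4, 44.3% for Smarcc1 and 55.7% for Smarcc2. With 36 Smarcd3 reads over 4 zinc libraries, the depth limits how far below water its zinc level can be placed.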

Other observations

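Actl6b, Dpf1, Chd5 and Smarca1, from the other lists, had too few counts to be tested. Actl6b, an actin-related subunit of the neuronal BAF complex, was at 0 counts throughout (a limit of 0.115 to 0.188 CPM by library), while its paralogue Actl6a had 30.2 ± 5.11 CPM with water against 29.8 ± 2.20 CPM with zinc (SD, n = 4). Dpf1, also a neuronal subunit, had at most 5 counts in a library, while its paralogue Dpf2 had 27.6 ± 4.22 CPM with water against 27.6 ± 1.54 CPM with zinc (SD, n = 4). Among the other ATPases, Chd5 had 0 counts in all libraries and Smarca1 had at most 2, while Smarca5, the other ISWI ATPase, had 28.1 ± 3.54 CPM with water against 29.2 ± 3.16 CPM with zinc (SD, n = 4). For Actl6a, Dpf2 and Smarca5 the log2 fold changes were -0.02 (SE 0.13), 0.00 (SE 0.13) and 0.06 (SE 0.13), each within its error of 0.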
